A study of Mus musculus with 2 samples.

Results

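The 41 genes described here encode the folding machinery of the endoplasmic reticulum (ER) and the parts of the unfolded protein response that adjust it. These parts are the arms run by ATF6 and by IRE1 with XBP1, and the list was meant to leave out targets of ATF4. Herpud1, which is on the list, is known to respond to ATF4 as well. The 41 genes were chosen by name from a fixed list, and all 41 were found among the 24013 gene symbols of the table. For the 11 symbols with more than 1 transcript row, the most abundant row by its mean was taken. RNA sequencing compared splenic CD8 T cells of 2 mouse genotypes on the C57BL/6 strain, with 1 library each: wild type, from animals labelled as 7 weeks old, and DGKζ-/-, which lacks diacylglycerol kinase ζ, from animals labelled as 6 weeks old. In both groups naive CD8 T cells had been purified with a kit and then held for 24 hours on plates coated with antibodies to CD3 and CD28, so no unstimulated cells enter the comparison. The labels do not say how DGKζ was removed or in which cells, and give neither the sex nor the number of the animals behind each library.

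The ER folds proteins that enter the secretory pathway or the membrane, such as cytokines, granzymes and receptors. When folding falls behind, BiP (Hspa5) leaves the sensors ATF6, IRE1 (Ern1) and PERK (Eif2ak3). ATF6 is then cut by the site-1 and site-2 proteases (Mbtps1, Mbtps2), IRE1 splices the Xbp1 message, and PERK slows translation and favours ATF4. ATF6 and XBP1 act on promoters that hold the ER stress response element (ERSE) or related elements, and raise chaperones, disulfide isomerases and the ER-associated degradation (ERAD) machinery. T cells enlarge their ER when they are activated, and XBP1 has been studied in effector CD8 T cells.

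Promoter sequences are shown first, because they group these genes by a feature other than their expression. The genes were listed by name for their known roles, and the ERSE was first described in promoters of such genes, so its share among them is a description. The windows run from 250 bases before to 50 bases after the annotated start and come from RefSeq on GRCm38.p6, a later build than the mm9 named for the reads. A window was at hand for 35 of the 41 genes. Atf6, Derl1, Hyou1, Manf, Sec61a1 and Ssr2 had none and were not searched. The ERSE searched, on both strands, was CCAAT, then 9 bases of any kind, then CCACG. The second form of the element, ERSE-II, was ATTGG, then a single base of any kind, then CCACG, where ATTGG is CCAAT read on the opposite strand. Of the 35 genes, 9 held the ERSE and 2 held ERSE-II, together 31.4%, against 0.181% of all 27025 genes in the table of windows. The 4 promoters below are those of the gene with the highest and the gene with the lowest log2 ratio among the compared members, and of the chaperones BiP and GRP94. They are printed 5′ to 3′ on the strand of the gene, over the 250 bases before the start, with the fixed letters of each ERSE or ERSE-II in capitals, and in Herpud1 also those of a C/EBP-ATF response element.
Herpud1 (chr8:94386179-94386428, plus strand): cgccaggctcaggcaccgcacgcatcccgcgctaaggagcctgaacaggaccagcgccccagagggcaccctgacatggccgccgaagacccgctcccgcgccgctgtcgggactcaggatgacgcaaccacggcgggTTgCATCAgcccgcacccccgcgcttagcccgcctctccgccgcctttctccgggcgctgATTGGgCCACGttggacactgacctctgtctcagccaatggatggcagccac
Syvn1 (chr19:6046326-6046575, plus strand): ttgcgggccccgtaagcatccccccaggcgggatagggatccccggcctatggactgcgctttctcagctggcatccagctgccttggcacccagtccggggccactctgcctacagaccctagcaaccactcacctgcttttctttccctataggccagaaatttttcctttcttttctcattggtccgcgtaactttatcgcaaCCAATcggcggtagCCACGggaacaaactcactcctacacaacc
Hspa5 (chr2:34771840-34772089, plus strand): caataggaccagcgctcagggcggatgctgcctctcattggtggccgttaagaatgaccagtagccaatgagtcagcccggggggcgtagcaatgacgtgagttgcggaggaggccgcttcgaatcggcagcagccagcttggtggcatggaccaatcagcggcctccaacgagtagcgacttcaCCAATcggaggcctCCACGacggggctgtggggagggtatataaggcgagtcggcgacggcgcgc
Hsp90b1 (chr10:86705445-86705694, minus strand): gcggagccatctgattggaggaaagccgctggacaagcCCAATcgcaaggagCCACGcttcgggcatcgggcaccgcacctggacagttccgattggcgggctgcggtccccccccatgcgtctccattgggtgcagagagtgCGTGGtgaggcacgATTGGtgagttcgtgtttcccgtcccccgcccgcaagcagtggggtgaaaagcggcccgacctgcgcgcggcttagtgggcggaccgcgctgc

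Herpud1 held ERSE-II from 52 to 42 bases before its start. Syvn1 held the ERSE from 44 to 26 bases before the start, and Hspa5 held it from 65 to 47 bases before. Hsp90b1 had a pair of them, from 212 to 194 bases before the start and, turned to the other strand, from 107 to 89. The sites of the other 7 genes are shown next to let the spacer be compared, each turned so that the fixed letters, in capitals, read in the same direction.
Calr (chr8:84847075-84847093): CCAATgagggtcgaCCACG
Canx (chr11:50325800-50325818): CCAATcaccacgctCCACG
Creld2 (chr15:88819520-88819538): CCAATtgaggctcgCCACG
Derl3 (chr10:75893242-75893260): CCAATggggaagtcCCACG
Dnajc3 (chr14:118937827-118937845): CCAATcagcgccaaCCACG
Pdia6 (chr12:17266491-17266509): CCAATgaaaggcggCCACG
Dnajb11 (chr16:22857852-22857862): ATTGGcCCACG

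The Dnajb11 site lay after the start, from 7 to 17 bases into the gene, and the other sites lay before it. The XBP1 element TGACGTGG, whose opposite strand begins with the CCACG that also ends both ERSE forms, was in 0 of the 35 windows and in 0.714% of all genes. CCACG alone was in 27 of the 35 windows, 77.1%, and in 35.5% of all genes. It was also common in other lists with a window. The shares were 73.3% in the ATF4 branch, 60% in lists of other ER functions and 54.2% in cytosolic and mitochondrial chaperones. Among 70 genes with a window from lists of other ER functions, 1 held ERSE-II (Krtcap2, a subunit of the oligosaccharyltransferase) and 0 held the ERSE. The XBP1 element was in 6 of these 70, 8.57%. These are exact letter matches and describe the sequence only.

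**Figure D1:**
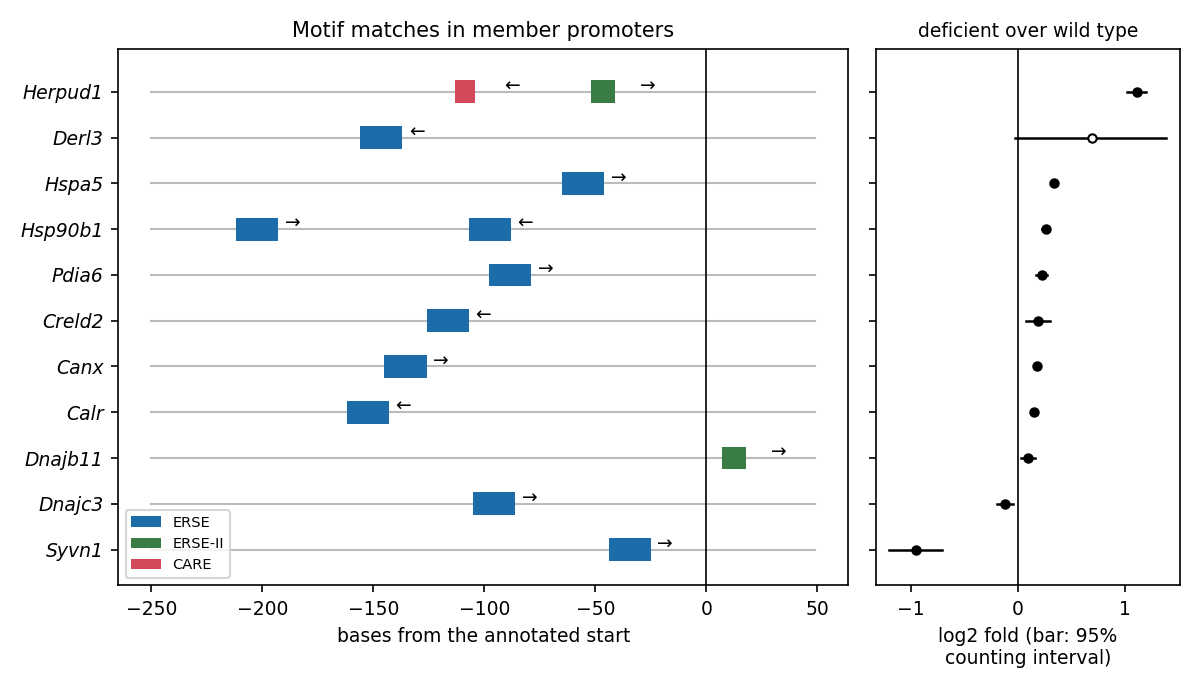
Left, motif matches along the promoters of the 11 genes with an ERSE or ERSE-II, in bases from the annotated start, with arrows for the strand and CARE for the C/EBP-ATF response element; right, log2 of the fold between the libraries with its 95% counting interval, the open point marking Derl3, whose mean was under 50. Herpud1 at the top and Syvn1 at the bottom both carry an element close to the start, and the log2 ratios of the 10 compared genes run from -0.93 to 1.11.

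The wild-type library held 37211969 reads and the deficient library 13464169 over 1 row per gene. Values are the deposited normalized counts, which are reads divided by 1 size factor per library, and the log2 ratio is log2((deficient + 10)/(wild type + 10)). Folds are taken without the added 10 and carry an exact 95% interval (Clopper-Pearson), which covers counting error only. With 1 library per genotype no difference has a replicate check and none was tested. The targeted gene Dgkz stood at 6714 normalized counts in wild type and at 2591 in the deficient library, lower by 2.59-fold (2.46 to 2.74), and whether the deposited row covers the deleted part is not stated. The libraries also differed in sex-linked transcripts (Xist at 24 and 5368 reads, Ddx3y at 3759 and 0 reads), so genotype, sex and age cannot be told apart. The 5 CD8 T cell markers were all present and all lower in the deficient library, from Cd3g at a log2 ratio of -0.87 to Cd3d at -0.18. In a purified population, fewer cells of a type and less RNA per cell cannot be told apart.

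The ER genes as a group stood close to the rest of the transcriptome. A mean of at least 50 normalized counts was reached by 39 of the 41, and Derl3 and Sec61g fell short of it. Of these 39, 1 was at least 2-fold higher in the deficient library (Herpud1), where 1.3% of all 10518 compared genes were, and 0 were at least 2-fold lower, where 1.29% were. At a 1.5-fold limit 2 were higher (Herpud1 and Pdia5; 4.53% of all genes) and 1 was lower (Syvn1; 5.07%). The median log2 ratio of the 39 was 0.11, with quartiles of -0.00082 and 0.22, and that of all compared genes was 0.055, with quartiles of -0.14 and 0.22. Above 0 lay 29 of the 39 (74.4%) and 58.2% of all genes. Among abundant genes, with a mean of at least 1000, 25 of 31 members and 66.4% of all genes lay above 0. Their medians there were 0.14 and 0.095. Scaled to equal read totals, 22 of the 39 and 44.8% of all genes lay above 0, with a median of 0.025 against -0.033 for all genes. Under that scaling Syvn1 passed the 2-fold limit, with a log2 ratio of -1.02, and 1.09% of all genes were at least 2-fold higher and 1.7% lower.

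**Figure D2:**
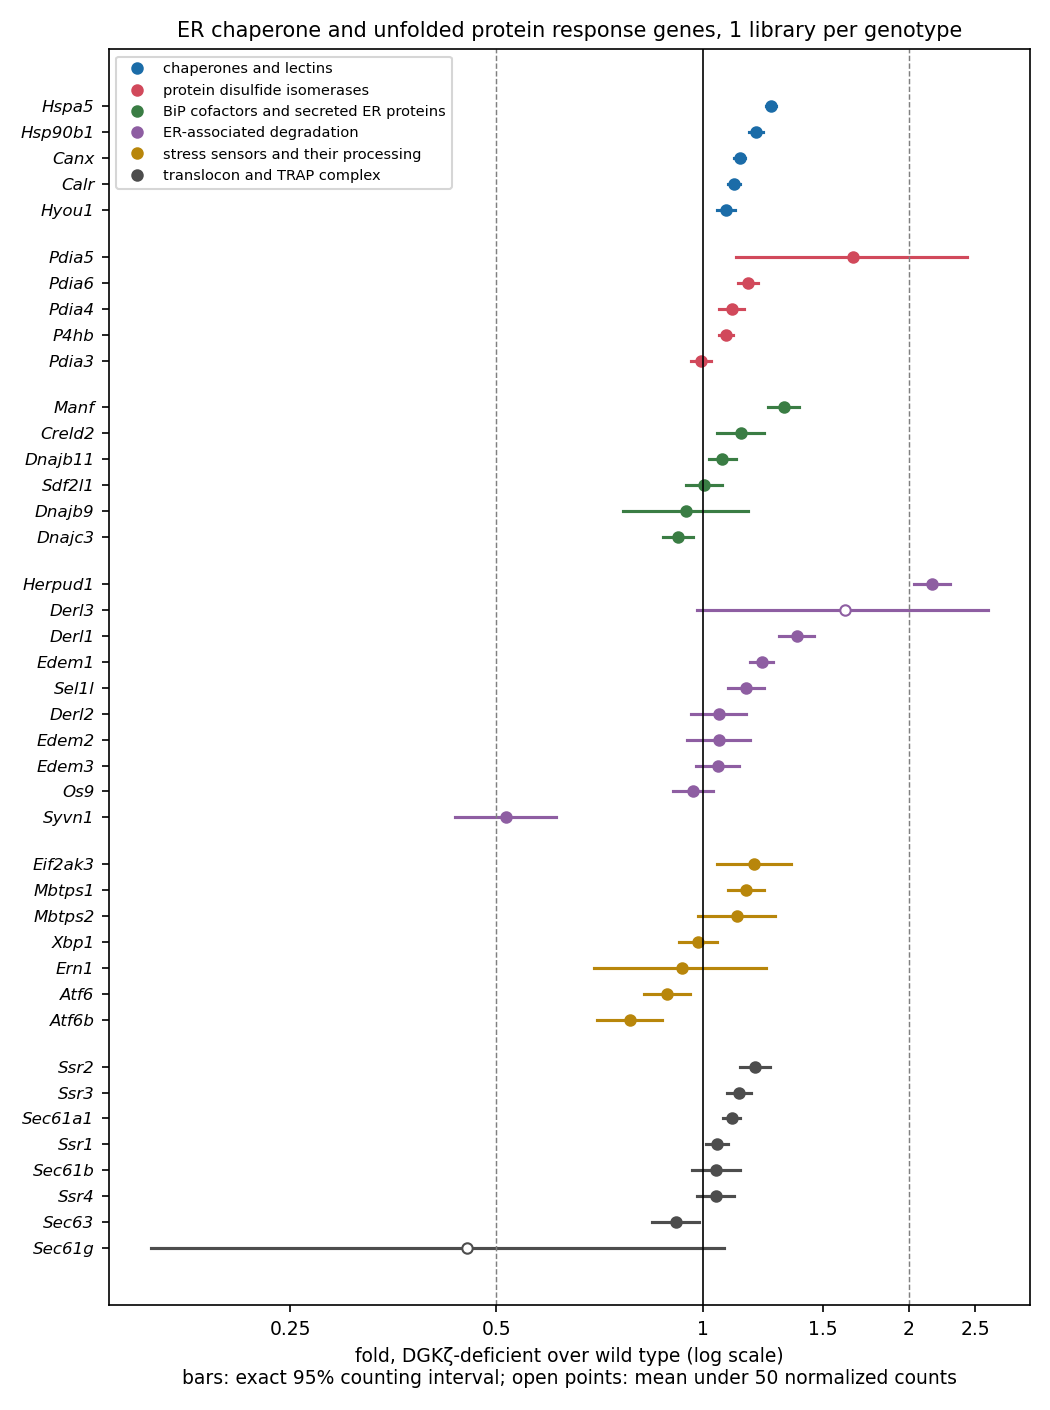
Fold between the libraries for each of the 41 genes, by role, on a log axis; bars are exact 95% counting intervals, open points are genes with a mean under 50, dashed lines mark 2-fold. The 5 chaperones and lectins sit between 1.08 and 1.26, while Herpud1 (2.16) and Syvn1 (0.517) lie apart within the ERAD genes, and the open point of Sec61g (0.452) is the lowest of all.

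The major chaperones were all slightly higher in the deficient library. BiP (Hspa5), the HSP70 of the ER that binds unfolded chains and holds the stress sensors, had 24389 normalized counts in wild type and 30707 in the deficient library. Its fold of 1.26 (1.24 to 1.28) was the highest of its role group. GRP94 (Hsp90b1), the HSP90 of the ER and a chaperone of integrins and Toll-like receptors, followed with 14407 and 17253. Calnexin (Canx), the membrane-bound lectin that holds glycoproteins during folding, was read at 23150 and 26234. Calreticulin (Calr), its soluble relative, was read at 21135 and 23482. Both lectins also take part in the assembly of MHC class I. Hyou1, which exchanges nucleotide on BiP, was lowest in fold, at 8630 and 9343 normalized counts, a fold of 1.08 (1.05 to 1.12). All 5 intervals excluded 1, as did the intervals above 1 of 35.8% of all compared genes. The 5 log2 ratios stayed above 0 under every scaling run, with Hyou1 at 0.025 at equal read totals. The intervals hold for the deposited scaling and were not recomputed under the others. The median log2 ratio of the group was 0.18, and 0.091 at equal read totals. Of the words of 50 bases in the Hsp90b1 transcript, 13.8% also occur in transcripts of other genes, so its reads are less certain than those of Hspa5 with 0%.

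The protein disulfide isomerases, which form and rearrange disulfide bonds, were mostly slightly higher in the deficient library, and the rare Pdia5 differed most. Of the 5 intervals 4 lay above 1, as did those of 35.8% of all compared genes. P4hb, the founding member of the family, was read at 14564 and 15773 normalized counts. Pdia6 was read at 6714 and 7824, and Pdia4 at 4700 and 5181. Each of these lay higher in the deficient library by a small margin, with log2 ratios of 0.11, 0.22 and 0.14. At equal read totals these log2 ratios were 0.025, 0.13 and 0.051, and the intervals were not recomputed there. Pdia3 (ERp57), the isomerase that works with calnexin and calreticulin, was read at 7948 and 7903, a fold of 0.994 (0.961 to 1.03), and was the lowest of the group. Pdia5 was read at 45.5 and 75.5 normalized counts. Its fold of 1.66 had an interval from 1.12 to 2.43, since it rested on 78 and 44 reads. With a mean near the minimum it no longer passed the 1.5-fold limit when 50 was added in place of 10, when totals were made equal, or when all genes were recentred on their median.

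Among the cofactors of BiP and the small secreted ER proteins, Manf differed most. Manf, a growth factor-like protein retained in the ER until calcium is lost, was read at 2682 and 3526 normalized counts, a fold of 1.31 (1.25 to 1.39), with 5.32% of its words found in another gene. Creld2, a small ER protein of the same stress programme, was read at 1324 and 1506. The J-domain protein Dnajb11 (ERdj3), which hands clients to BiP, was read at 4046 and 4323. Its 3 transcript rows gave log2 ratios from 0.095 to 0.15. Sdf2l1, a partner of Dnajb11, was read at 2429 and 2440, practically the same level in both libraries. Dnajb9 (ERdj4), a J-domain protein that represses IRE1, was read at 223 and 211, with an interval of the fold that included 1 (0.766 to 1.16). Dnajc3 (P58IPK), a BiP cofactor that was first known as an inhibitor of the kinase PKR, was lowest, at 3818 and 3512, a fold of 0.920 (0.875 to 0.967). The group had a median log2 ratio of 0.051, which turned to -0.038 at equal totals and to -0.0036 when all genes were recentred on their median.

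ERAD, which pulls misfolded proteins back to the cytosol for the proteasome, held the highest and the lowest log2 ratio of the 39 compared genes. Herpud1 (HERP), a membrane protein that gathers the degradation complex around HRD1 and is known to respond to ATF4 as well as to ATF6 and XBP1, had 1476 normalized counts in wild type and 3190 in the deficient library. These values come from 2532 and 1860 reads, and give a fold of 2.16 (2.03 to 2.29). From the highest log2 ratio down, Herpud1 ranked 109 of 10518 compared genes. None of its 50-base words occur in other genes. Syvn1, which encodes the ubiquitin ligase HRD1 itself, was read at 541 and 280 normalized counts, from 928 and 163 reads. In the deficient library it was lower by 1.94-fold (1.64 to 2.30) and ranked 174 from the lowest log2 ratio up. Its 2 transcript rows gave -0.93 and -0.92, and 1.23% of its 50-base words occur in Mrpl49. Sel1l, the adaptor that HRD1 needs, was read at 2184 and 2530, so the partners HRD1 and SEL1L lay on opposite sides of 1 in these libraries.

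Of the derlins, which form the membrane channel with HRD1, Derl1 was read at 2029 and 2783 normalized counts, a fold of 1.37 (1.29 to 1.46), with 5.92% of its words found in another gene. Derl2 was read at 1015 and 1072, with log2 ratios from 0.043 to 0.078 over its 4 rows, and 12.8% of its words occur in another gene. Derl3, the derlin typical of secretory cells, was rare at 29.7 and 48.0 normalized counts (51 and 28 reads), a fold of 1.61 (0.980 to 2.61). The interval of Derl1 thus excluded 1, and those of Derl2 and Derl3 did not. The wide interval of Derl3 also held the fold of Derl1, so these 2 genes are not told apart. Of the mannosidase-like EDEM proteins, which mark glycoproteins for disposal, Edem1 was read at 4983 and 6080, a fold of 1.22 (1.17 to 1.27). Edem2 was read at 759 and 801 and Edem3 at 1697 and 1785, and both intervals included 1. The lectin Os9, which passes such glycoproteins to SEL1L, was read at 2055 and 1988 normalized counts, a difference within counting error. Of the 9 compared ERAD genes, 7 (77.8%) had a log2 ratio above 0, beside 58.2% of all compared genes. The median of the 9, 0.078, became -0.010 at equal totals, where Derl2, Edem2 and Edem3 lay below 0. There the median of all genes was -0.033.

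The sensors, Xbp1 and the proteases that cut ATF6 lay on both sides of equality. Xbp1 was read at 2265 and 2233 normalized counts, a fold of 0.986 (0.925 to 1.05), and its 2 rows, which are distinct accessions, had equal values. The rows count reads over whole transcripts and do not separate spliced from unspliced Xbp1, so the activity of IRE1 was not measured. Ern1 (IRE1) was read at 120 and 111 normalized counts, with an interval from 0.694 to 1.24. Atf6 was read at 1681 and 1492 and was lower beyond counting error, with an interval of the fold from 0.822 to 0.958. Atf6b, its weaker relative, was lowest in this group at 914 and 715, which is 1.28-fold lower (1.15 to 1.43). Eif2ak3 (PERK) was highest, at 517 and 614, a fold of 1.19 (1.05 to 1.35), with 7.64% of its words found in another gene. The proteases stood at 2206 and 2552 for Mbtps1 and at 507 and 569 for Mbtps2, and the second of these differences was within counting error. The median log2 ratio of the 7 genes was -0.020, and 3 of 7 (42.9%) lay above 0, beside 58.2% of all compared genes.

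The translocon, through which new chains enter the ER, and the associated TRAP complex differed little between the libraries. Of the 7 compared genes, 4 had an interval above 1 and 1 below it, where 35.8% and 21.7% of all genes did. Sec61a1, the channel subunit, was read at 9189 and 10130 normalized counts, with 14.6% of its words found in another gene. Sec61b was read at 1371 and 1435 and Sec61g at 22.7 and 10.3. For Sec61b 211 of 515 and for Sec61g 324 of 730 words of 50 bases occur in other genes, so their reads may be split among copies and their values are uncertain. Sec61g rested on 39 and 6 reads, with an interval of the fold from 0.157 to 1.08. Sec63, the J-domain partner that brings BiP to the channel, was read at 1566 and 1432, a fold of 0.914 (0.845 to 0.989). The TRAP subunits, which help some signal sequences open the channel, were read at 6338 and 6659 (Ssr1), 3104 and 3698 (Ssr2), 5034 and 5692 (Ssr3) and 2225 and 2326 (Ssr4). Ssr2 had the highest fold of the group, 1.19 (1.13 to 1.25). The 4 subunits belong to 1 complex, and their log2 ratios ran from 0.063 to 0.25. At equal totals Ssr1, Ssr4 and Sec61b had log2 ratios between -0.018 and -0.026.

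Levels between genes were compared per length, as normalized counts per kilobase of the GENCODE M21 transcript paired with each accession, which was found for all 41. Calr (9677 in wild type) and Hspa5 (9334) were the most abundant per kilobase, followed by Canx (5408), Hsp90b1 (5100) and P4hb (5091). Hspa5 stood above 98.7% of all compared genes with a length in the wild-type library. In the deficient library Hspa5 (11752) exceeded Calr (10752). The sensor Ern1 was lowest in wild type, at 17.2 per kilobase, beside Derl3 (22.5), Pdia5 (25.1) and Sec61g (29.2). Of the other sensors, Eif2ak3 stood at 114 per kilobase in wild type and Atf6 at 232, and Xbp1, whose message IRE1 splices, stood at 1064. All 5 major chaperones and lectins lay above these 3, while Pdia5 and Dnajb9 (90.5) lay below them. Transcript models with other ends would shift these values.

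**Figure D3:**
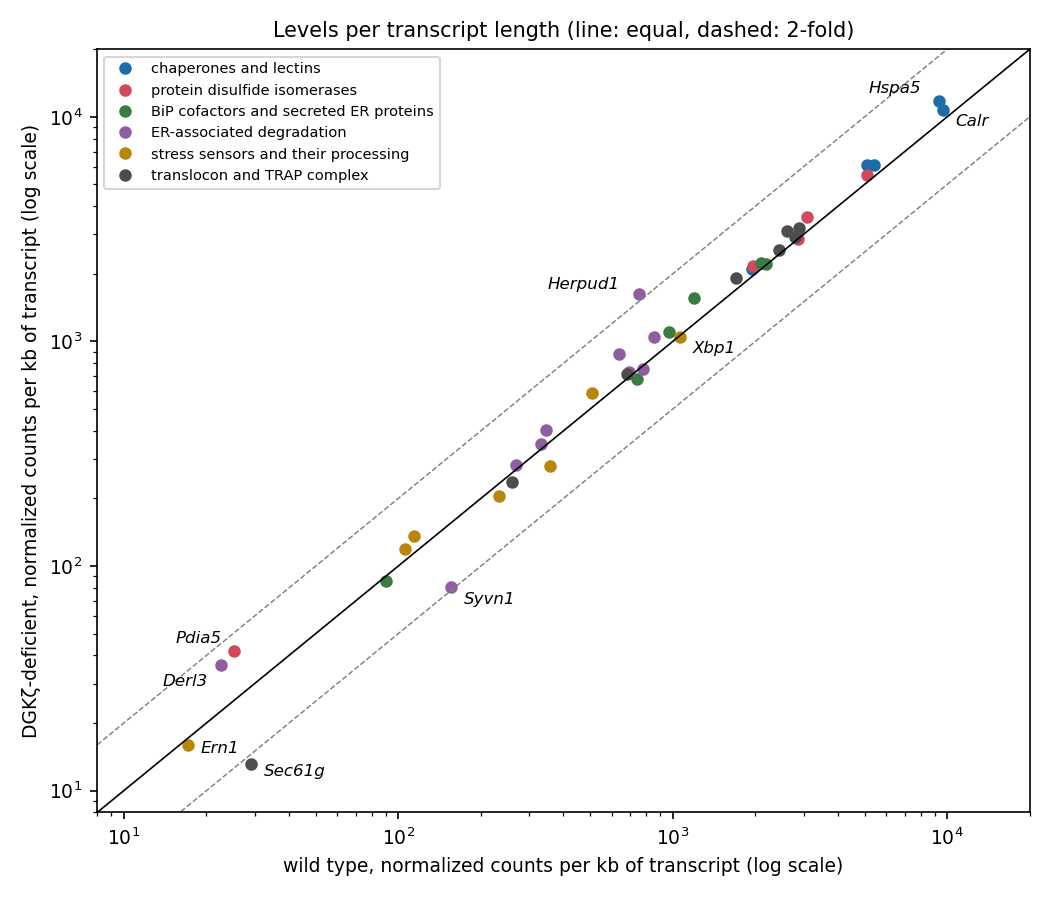
Normalized counts per kilobase of transcript in the wild-type library (x) and the deficient library (y), both on log axes, 1 point per gene, colours for roles, solid line for equal values and dashed lines for 2-fold. Most points follow the solid line from Ern1 (17.2 in wild type) to Calr (9677), with Herpud1 just above the upper dashed line, Syvn1 just inside the lower one and the rare Sec61g (29.2 and 13.2) outside it.

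Genes with and without the ERSE were set side by side. The 10 compared members with an ERSE or ERSE-II had a median log2 ratio of 0.18, with 8 above 0 and 2 below, and the 23 with a window but neither element had a median of 0.073, with 16 above 0 and 7 below. The 2 below 0 among the first were Syvn1 and Dnajc3. Herpud1 and Dnajb11, the genes with ERSE-II, had log2 ratios of 1.11 and 0.095. The elements were thus found both in the highest and in the lowest of the compared members. Over all 7933 compared genes with a window the median was 0.055, with 4642 above 0. The 11 compared genes outside the members that held either element had a median of -0.037, with 5 above 0 and 6 below. These differences were not tested.

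Other parts of the ER machinery, taken from lists of 94 genes of which 89 were compared, had a median log2 ratio of 0.14 with 0 genes past 2-fold. Over all compared genes the median was 0.055 and 58.2% lay above 0, with 1.3% at least 2-fold higher and 1.29% lower. These lists were not rescaled to equal read totals. The oxidation and folding list had 13 of 19 above 0, led by the peroxidase gene Prdx4 (0.66) and the disulfide oxidase gene Ero1l (0.57), while the related oxidase gene Ero1lb (-0.24) and Qsox1 (-0.20) were lowest. Signal recognition, signal peptidase and oligosaccharyltransferase genes had 20 of 25 above 0, from Tram1 (-0.30) and Spcs3 (-0.16) to Krtcap2 (0.34) and Srp54a (0.58). In the glycan trimming list 8 of 9 lay above 0, with Lman2 (0.26) and Lman1 (0.23) highest and Uggt1 (0.071) and Erlec1 (-0.56) lowest. Of the further ERAD genes 14 of 18 lay above 0, among them Vimp (0.54) and Ubxn4 (0.44) at the top, and Ngly1 (-0.061) and Ube2g2 (-0.13) at the bottom. The COPII coat list, which carries cargo out of the ER, had the lowest median, 0.023, with Surf4 (0.21) and Sec24d (0.19) highest and Sec24b (-0.48) and the transcription factor Creb3l2 (-0.67) lowest.

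The ATF4 branch, which PERK and other kinases of eIF2α feed, stood far from most of the 41 genes in the same libraries. Of its 13 compared genes 9 were at least 2-fold higher and 0 lower, with a median log2 ratio of 1.29. Trib3 (2.94) and Chac1 (2.74) were highest, and Cebpg (0.24) and the phosphatase subunit gene Ppp1r15b (-0.16) lowest. The cytosolic and mitochondrial chaperones had a median of 0.25 with 0 of 25 past 2-fold, from Hsp90aa1 (0.49) and Hspd1 (0.41) down to Dnajb6 (-0.084) and Hspa8 (-0.41). These lists were chosen with earlier results known, and the differences between lists were not tested. The C/EBP-ATF response element TGATGNAAN, a site of ATF4 with C/EBP factors that was searched after the values had been seen, was in 1 of the 35 windows, that of Herpud1, from 113 to 105 bases before its start. It was in 6 of 15 windows of the ATF4 branch and in 4.5% of all genes. In Herpud1 the 9 letters are TGATGcAAc. Of the 6 matches in the ATF4 branch, those of Chac1 and Vldlr (16 and 30 reads, not compared) have the same letters. The others differ at the bases of any kind. A role of the site in the Herpud1 value was not tested.

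**Figure D4:**
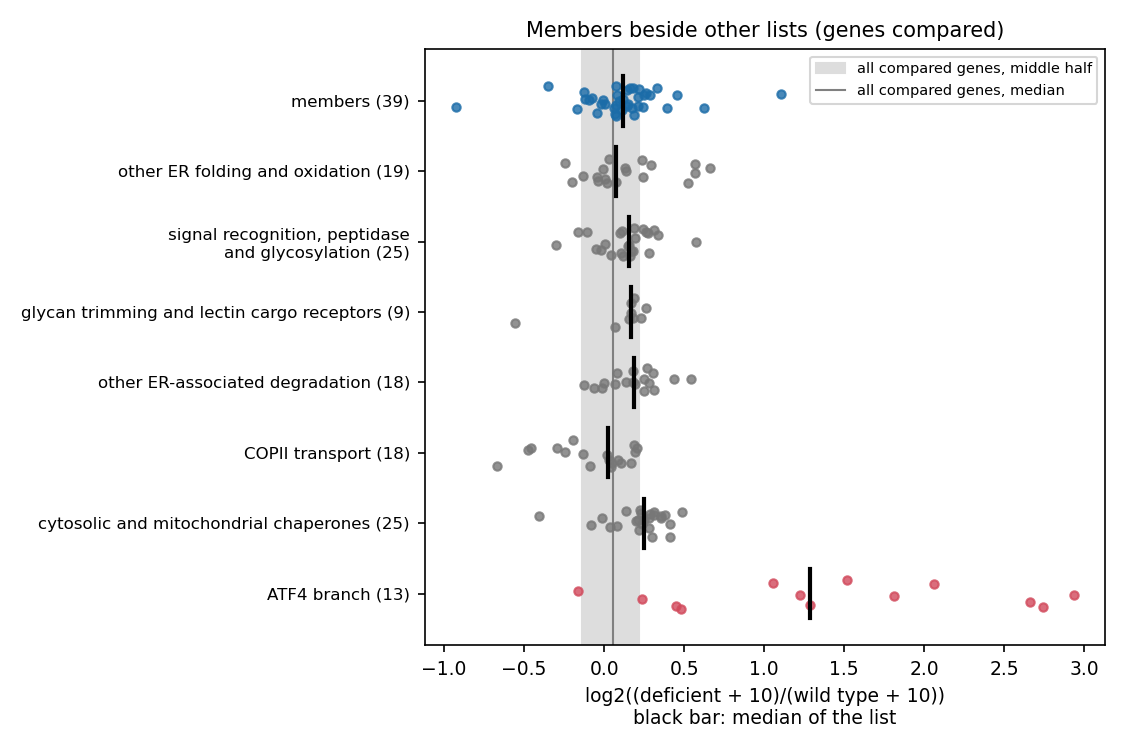
Log2 ratio of each compared gene, by list, with the number of genes in brackets, black bars for list medians and the grey band for the range between the quartiles of all compared genes. Most of the 39 members lie in or near the band with a median of 0.11, whereas the ATF4 branch reaches 2.94 with a median of 1.29.

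Markers of B cells, plasma cells, CD4 T cells and myeloid cells were checked beside these values. The 12 B cell markers summed to 3185 normalized counts in the wild-type and 2331 in the deficient library, 9 were compared, all 9 with a log2 ratio below 0, and 0 of the 12 were at 0 reads. The 6 plasma cell markers summed to 236 and 276 normalized counts and went both ways. Tnfrsf17 (1 and 0 reads), Mzb1 (27.4 and 6.86 normalized counts) and Prdm1 (43.7 and 24.0) were lower in the deficient library, and Sdc1 (137 and 187 normalized counts, fold 1.36), Fkbp11 (fold 2.25, 1.30 to 3.86) and Igj (7.00 and 13.7 normalized counts, fold 1.96, 0.695 to 5.22) were higher. The 4 CD4 T cell markers summed to 510 and 427 normalized counts. Of them Cd4 (171 and 53.2), Cd40lg (20.4 and 5.14) and Zbtb7b (57.1 and 48.0) were lower, and Foxp3 (262 and 321) was higher. The 8 myeloid markers summed to 276 and 273. Among the myeloid markers Mpeg1 was higher (127 and 185 normalized counts, fold 1.46) and the other 7 were lower, among them Itgam (15.7 and 1.71 normalized counts) and Cd14 (1 and 0 reads). Fkbp11 is on both the plasma cell list and the folding list. The part of these cells, of sex or of age in the values of the 41 genes was not tested.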

How the data were processed

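The submitters' processing notes name STAR (version 2), DESeq and build mm9 without their roles. The counting program and annotation were not stated. Per the labels the kit was NEBNext Ultra RNA, which does not mark the strand, so overlapping antisense reads are included. The authors deposited normalized counts, a never-negative signal per RefSeq row. Dividing each column by its smallest step gave whole reads for 100% of values in each library (relative tolerance 0.0001), which recovers the reads and gives size factors of 1.71 (wild type) and 0.583 (deficient). With 1 library per group edgeR has no residual degrees of freedom, and no count test was run. The log2 fold change, p-value and score in the second table are the authors' own, and the score was not used.

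Of 33018 rows, 1 with shifted values (Alg6) was left out, and 53 with a symbol turned into a date kept it, so March6 of the ERAD list was not matched. Genes with a mean of at least 50 were compared. The ratio and interval code was tested on simulated reads for 10518 genes, of which 200 were changed 3-fold. The reads were drawn with counting error alone, so this checks the code and holds no spread between animals or libraries. Of the 200 changed genes 99.5% passed the 2-fold limit, and 95.8% of all intervals held the true fold. Tools were Python 3.11.15, scipy 1.17.1, pandas 2.3.3 and edgeR 4.0.16 (TMM factors only). The members, lists and tests were chosen with earlier results of these data known. Every member is named; folds with intervals were planned for members with an absolute log2 ratio of at least 0.4 and for the highest and lowest of each role group, and of the other lists the 2 highest and 2 lowest are named. Intervals given for further members, the 50-base words, and the sex-linked genes were added after values had been seen. A planned look at protein ends was not made, and protein sequences were not used here. Alternatives changed the scaling, the added constant, the minimum mean and the transcript row.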

Additional observations from a re-analysis of the deposited data

How the results depend on the processing

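The added constant (1 or 50), minimum means of 200 or none, TMM factors and the choice or sum of transcript rows left the median of the ER genes between 0.099 and 0.14. Recentring on the median of all genes gave 0.060. At equal read totals the median was 0.025, 1 gene (Syvn1) was called 2-fold lower, and 1 gene was higher past 1.5-fold. That last count was also 1 after recentring, with a constant of 50, and at minimum means of 200 and 1000, the limit of 1000 being chosen after seeing the data. The count lower past 1.5-fold was 2 without a minimum, which adds Sec61g, and 0 at a minimum of 1000, which leaves out Syvn1. Herpud1 was called 2-fold higher under all 10 settings. Of the 41 genes, 34 kept the sign of their log2 ratio under the 7 settings run on single genes, 23 above 0 and 11 below. The other 7 changed sign at equal totals, with absolute log2 ratios under 0.1, and Sdf2l1 also under TMM and recentring. Without a minimum, 0.733% of all genes were at least 2-fold higher and 1.56% lower. No paired analysis was possible because each genotype has 1 library. Few reads limit Derl3, Sec61g and Pdia5.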

Other observations

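The authors' deposited table orders these genes differently from the ratios of their normalized counts. Herpud1 has a log2 fold change of 0.22 in the authors' deposited table, beside a log2 ratio of 1.11 from the normalized counts, and ranks 4 among the 41 genes. Derl1 (0.33), Manf (0.29) and Hspa5 (0.26) rank above it in the authors' deposited table, with log2 ratios of 0.45, 0.39 and 0.33. For Syvn1 the authors' deposited table gives -0.50, with the lowest p-value of the 41 genes, 0.0624, and an adjusted p-value of 0.999. The lowest adjusted p-value anywhere in the authors' deposited table is also 0.999, and its log2 fold changes stay between -0.66 and 0.67.

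Outside the 41 genes, 11 compared genes held an ERSE or ERSE-II in the same promoter window. Their median log2 ratio was -0.037, with 5 above 0 and 6 below, and 0 passed 1.5-fold. They include Krtcap2 (0.34), Alg12, a mannosyltransferase of the ER (0.14), and Nucb1, a calcium-binding protein of the Golgi (-0.26).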
